A study of Arabidopsis thaliana with 8 samples.

Results

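The genes described here are those of endosperm that lacked maternal RNA polymerase IV (Pol IV) only, compared gene by gene with wild-type (WT) endosperm. A gene was included if the deposited mat nrpd1+/- table gave it the status OK and if it lay outside the regions of residual Col-0 sequence in the Ler nrpd1 stock. This left 17307 of the 37329 genes of the table, of which 17175 are nuclear and the others are encoded by the chloroplast or the mitochondrion.

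Pol IV is a plant RNA polymerase that transcribes transposons and other silent loci into precursors of small RNAs, which then guide DNA methylation to matching sequence. Its largest subunit is encoded by NRPD1. The endosperm is the product of fertilization that nourishes the embryo and holds both maternal and paternal genomes, so that removal of NRPD1 from the mother leaves a functional paternal copy in place. In Arabidopsis, endosperm nuclei first divide without cytokinesis, the tissue then cellularizes, and reserves of protein and oil are laid down as the seed matures under regulators such as ABI3, FUS3, LEC1 and LEC2 and the hormone abscisic acid.

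The mat nrpd1+/- endosperm came from F1 seed of a Ler nrpd1-/- mother pollinated by a Col-0 father, and WT endosperm from F1 seed of Ler pollinated by Col-0. The mutant allele is nrpd1a-4, a T-DNA insertion made in Col-0 and crossed repeatedly into Ler. Both were collected 7 days after pollination, and endosperm was freed by hand from embryos and seed coats, with many seeds pooled in each library. The series holds 3 mat nrpd1+/- and 2 WT mRNA libraries, whereas the table gives 1 pooled FPKM value per gene and genotype (fragments per kilobase of transcript, scaled to the mapped fragments of the library). No value per library was used, so no difference described here has a replicate check, and no test of genotype was made.

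The depth of the libraries is unknown from the table. The WT column of this table was the same, up to scale, as the WT column of the pat nrpd1+/- table (SD of the log2 ratio 0.0061 over 13601 genes). It was not the same as the WT column of the nrpd1-/- table, here called the second WT, which differed from it with an SD of 1.21 and by more than 2-fold at 32.2% of the 12664 genes compared. The sources used here do not name the libraries behind either WT column, and the study also drew on WT libraries that had been sequenced earlier with other read lengths. Genotype and sequencing run therefore cannot be told apart from the WT column alone, and list counts and named genes below are also given against the second WT, scaled by 1.09 to the median of this table's WT. NRPD1 itself lies inside a residual region and was listed at 2.08 FPKM in mat nrpd1+/- and 2.28 FPKM in WT (4.74 FPKM in the second WT).

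Changes are given as the log2 of (mat nrpd1+/- FPKM + 1) over (WT FPKM + 1). A gene is said to have risen or fallen when this ratio passed 2-fold. By this rule 1580 genes rose in mat nrpd1+/- endosperm, or 9.13% of all genes, and 2107 fell, or 12.2%, while 13620 stayed within 2-fold. The median ratio was -0.05, with 25% of genes below -0.54 and 25% above 0.40. Larger changes were few: 458 genes rose and 531 fell by 4-fold or more, and 74 rose and 80 fell by 16-fold or more. Scaling the 2 genotypes to the same FPKM sum over nuclear genes shifted the median of all genes by 0.42 and turned the split to 3377 higher and 1172 lower genes, so that 74.2% of the genes past 2-fold were higher, against 42.9% as deposited. Gene groups are therefore described relative to all genes, and each list count is to be read beside the shares of 9.13% and 12.2%.

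Against the second WT, 1766 genes were higher in mat nrpd1+/- (10.2%) and 1097 were lower (6.34%), so that 61.7% of the genes past 2-fold were higher. Both comparisons share the mat nrpd1+/- value and are not independent. Against both WT columns, 681 genes were higher than both (3.93%), and 371 were lower than both (2.14%). These were 43.1% of the genes that rose and 38.6% of those higher than the second WT, and 17.6% of the genes that fell and 33.8% of those lower than the second WT. In the reverse sense, 112 genes were higher than WT and lower than the second WT, and 249 were lower than WT and higher than the second WT. List counts against the second WT or against both are to be read beside the shares of all genes given here.

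**Figure D1:**
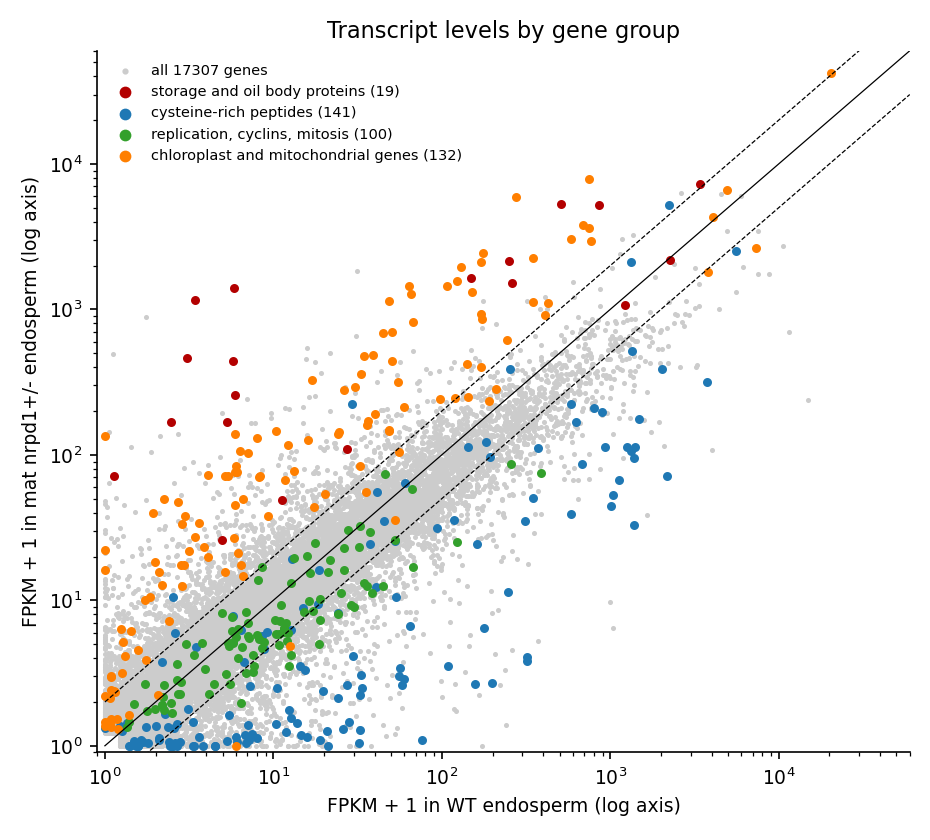
Level of each gene in mat nrpd1+/- endosperm (vertical axis) against WT endosperm (horizontal axis), as FPKM + 1 on log axes; the solid line marks equal levels and the dashed lines 2-fold. The 19 storage and oil body protein genes (red) lie above the diagonal apart from AT4G36700 and OLEO3, just below it, most of the 141 cysteine-rich peptide genes (blue) lie below it, and the 132 chloroplast and mitochondrial genes (orange) lie mostly above it against this WT.

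The 3 lists of seed storage proteins had the highest medians of the 57 gene lists against either WT. All 4 genes for 12S globulins (cruciferins), the main storage proteins of Arabidopsis seed, rose. CRU2 (AT1G03880, chr1:985751-988146) was at 1162 FPKM in mat nrpd1+/- and 2.40 FPKM in WT, with 23.1 FPKM in the second WT (log2 ratios 8.42 and 5.59). CRU3 (AT4G28520) stood at 1396 FPKM in mat nrpd1+/-, 4.82 FPKM in WT and 77.9 FPKM in the second WT (7.91 and 4.15). The mutant value lay above both WT values at each of these genes, although the second WT was also above WT. In whole tissue, more cells of a type and more RNA per cell cannot be told apart.

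CRA1, the most abundant cruciferin gene, was at 2137 FPKM in mat nrpd1+/-, 251 FPKM in WT and 852 FPKM in the second WT (3.09 and 1.33). The fourth gene, AT1G03890, was lower throughout, with 70.2 FPKM in mat nrpd1+/-, 0.133 FPKM in WT and 0.42 FPKM in the second WT. Summed over the 4 genes, the level was 4765 FPKM in mat nrpd1+/-, 258 FPKM in WT and 953 FPKM in the second WT. As a share of the FPKM sum over the genes compared, this was 0.648% in mat nrpd1+/- and 0.027% in WT. The median log2 ratio of the list was 6.94, and 4.87 against the second WT, beside -0.05 and 0.01 over all genes.

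The 2S albumins, small sulphur-rich storage proteins, could be read at 2 of 5 genes. SESA5 (AT5G54740) was at 256 FPKM in mat nrpd1+/-, 4.96 FPKM in WT and 78.6 FPKM in the second WT (5.43 and 1.69). SESA1 (AT4G27140) was at 1509 FPKM in mat nrpd1+/-, 258 FPKM in WT and 211 FPKM in the second WT (2.54 and 2.83). Its neighbours SESA2, SESA3 and SESA4, whose sequences are nearly the same, had too many reads for the authors' software to estimate and are listed at 0 in mat nrpd1+/-, so the levels within this gene cluster are uncertain. If those listed zeros are counted as values, the direction of the 2S albumin list turns.

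Of 4 vicilin-like cupin genes, which encode a further class of globulin reserve, 3 rose against either WT. PAP85 (AT3G22640) was at 465 FPKM in mat nrpd1+/-, 2.08 FPKM in WT and 34.5 FPKM in the second WT (7.24 and 3.71). AT2G28490 was at 166 FPKM in mat nrpd1+/-, 1.48 FPKM in WT and 32.1 FPKM in the second WT, and AT2G18540 at 48.3 FPKM in mat nrpd1+/-, 10.2 FPKM in WT and 20.4 FPKM in the second WT. The exception was AT4G36700, which was abundant in every column, at 1069 FPKM in mat nrpd1+/-, 1224 FPKM in WT and 1295 FPKM in the second WT.

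**Figure D2:**
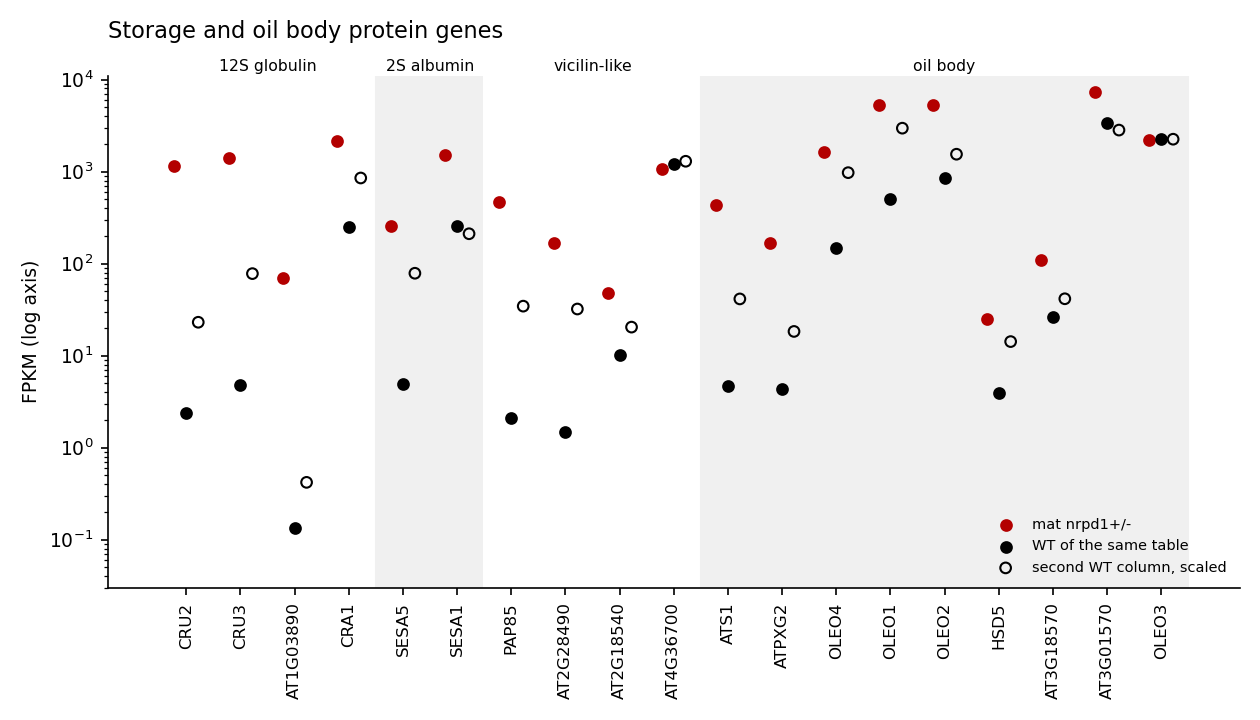
FPKM on a log axis of the 19 storage and oil body protein genes in mat nrpd1+/- (red), in WT of the same table (black) and in the second WT after scaling (open); each point is 1 pooled value, so there are no error bars. The red point is the highest at 17 genes, AT4G36700 and OLEO3 being the exceptions, and at most genes the open point lies between the other points.

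Genes for the proteins that coat oil bodies followed. Of 9, 8 rose, with a median log2 ratio of 2.63 (1.36 against the second WT, where 5 passed 2-fold). Oleosins keep oil bodies small and separate, and OLEO1 (AT4G25140), the main seed oleosin gene, was at 5328 FPKM in mat nrpd1+/-, 509 FPKM in WT and 2963 FPKM in the second WT (3.39 and 0.85). OLEO2 (AT5G40420) was at 5260.1 FPKM in mat nrpd1+/-, 851 FPKM in WT and 1545 FPKM in the second WT (2.63 and 1.77). OLEO4 (AT3G27660) was at 1638 FPKM in mat nrpd1+/-, 148 FPKM in WT and 974 FPKM in the second WT (3.46 and 0.75).

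Caleosins are calcium-binding oil body proteins with peroxygenase activity. ATS1 (AT4G26740, peroxygenase 1) was at 439 FPKM in mat nrpd1+/-, 4.74 FPKM in WT and 41.4 FPKM in the second WT (6.26 and 3.38), and ATPXG2 (AT5G55240) at 167 FPKM in mat nrpd1+/-, 4.33 FPKM in WT and 18.3 FPKM in the second WT (4.98 and 3.12). The highest oil body transcript was the oleosin family gene AT3G01570, with 7238 FPKM in mat nrpd1+/-, 3405 FPKM in WT and 2825 FPKM in the second WT (1.09 and 1.36). OLEO3 differed by less than 2-fold, with 2196 FPKM in mat nrpd1+/-, 2261 FPKM in WT and 2248 FPKM in the second WT.

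Enzymes that make the oil did not move with the proteins that coat it. Of 26 genes of fatty acid and oil synthesis, 2 rose and 1 fell, and the median log2 ratio was -0.30, which lay below that of all genes as deposited and above it by 0.30 after quantile normalization. The 2 genes that rose were DGAT3 (121 FPKM in mat nrpd1+/-, 36.7 FPKM in WT and 42.9 FPKM in the second WT), a cytosolic acyltransferase that makes triacylglycerol, and ROD1 (12 FPKM in mat nrpd1+/-, 2.45 FPKM in WT and 4.65 FPKM in the second WT), which exchanges head groups between membrane lipids and diacylglycerol. Both were also past 2-fold against the second WT, where 2 genes of the list were lower (median -0.38). LTA2, a subunit of plastid pyruvate dehydrogenase, fell to 102.7 FPKM in mat nrpd1+/-, against 215 FPKM in WT and 172 FPKM in the second WT (-1.06 and -0.74).

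The 300 bases before the start of these genes were read from the RefSeq assembly TAIR10.1 because regulators of seed maturation are known to bind 2 short motifs there: the RY motif CATGCA, read by the B3 domain of ABI3, FUS3 and LEC2, and the ABRE core ACGTG, read by bZIP factors of the abscisic acid response. Both strands were searched (TGCATG and CACGT on the reverse) and overlapping copies were counted separately. Of each list, the window printed is that of the gene with the largest gain against WT among those that were higher than both WT columns and held either motif, so that CRU2, whose window held neither, was passed over for CRU3. The windows are given 5′ to 3′ on the strand of the gene, with RY and ABRE copies in capitals. They are CRU3 at chr4:14087256-14087555 on the plus strand, SESA5 at chr5:22239188-22239487 on the minus strand, PAP85 at chr3:8013942-8014241 on the minus strand, ATS1 at chr4:13475372-13475671 on the minus strand, and the dehydrin gene LEA (AT2G21490) at chr2:9207126-9207425 on the minus strand.
CRU3: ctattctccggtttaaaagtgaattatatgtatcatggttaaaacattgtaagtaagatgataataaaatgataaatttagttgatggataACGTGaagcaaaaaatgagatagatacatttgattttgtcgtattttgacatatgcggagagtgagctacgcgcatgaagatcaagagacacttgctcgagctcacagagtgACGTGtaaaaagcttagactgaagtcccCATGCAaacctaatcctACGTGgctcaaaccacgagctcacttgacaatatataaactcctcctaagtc
SESA5: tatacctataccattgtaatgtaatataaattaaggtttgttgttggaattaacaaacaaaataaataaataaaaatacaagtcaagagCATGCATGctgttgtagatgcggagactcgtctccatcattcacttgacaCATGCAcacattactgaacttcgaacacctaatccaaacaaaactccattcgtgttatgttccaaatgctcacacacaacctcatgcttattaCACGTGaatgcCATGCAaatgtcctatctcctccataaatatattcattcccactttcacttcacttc
PAP85: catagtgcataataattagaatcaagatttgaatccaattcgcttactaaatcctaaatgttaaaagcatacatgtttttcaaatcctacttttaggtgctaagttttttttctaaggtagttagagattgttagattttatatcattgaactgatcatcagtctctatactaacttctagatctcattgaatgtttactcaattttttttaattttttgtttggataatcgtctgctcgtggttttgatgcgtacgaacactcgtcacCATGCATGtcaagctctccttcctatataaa
ATS1: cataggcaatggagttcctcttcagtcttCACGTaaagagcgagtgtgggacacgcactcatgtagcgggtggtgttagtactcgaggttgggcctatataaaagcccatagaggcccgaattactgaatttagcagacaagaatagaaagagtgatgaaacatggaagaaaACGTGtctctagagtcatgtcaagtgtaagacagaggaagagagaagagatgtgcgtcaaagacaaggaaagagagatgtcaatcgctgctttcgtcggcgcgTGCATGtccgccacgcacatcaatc
LEA: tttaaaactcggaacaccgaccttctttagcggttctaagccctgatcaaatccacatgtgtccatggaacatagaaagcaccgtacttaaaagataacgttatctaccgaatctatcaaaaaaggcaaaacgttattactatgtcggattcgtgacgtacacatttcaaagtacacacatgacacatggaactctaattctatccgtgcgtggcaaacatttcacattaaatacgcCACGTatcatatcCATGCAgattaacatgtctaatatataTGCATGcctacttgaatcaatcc
The CRU3 window holds 1 RY copy 69 bases before the gene start and 3 ABRE copies, and the SESA5 window 4 RY and 2 ABRE copies, where CATGCATG and CACGTG each count as 2. The PAP85 window has 2 RY copies in 1 CATGCATG and no ABRE copy, the ATS1 window, which also overlaps a neighbouring gene, 1 RY and 2 ABRE copies, and the LEA window 2 RY copies and 1 ABRE copy.

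Of the 19 storage and oil body genes, 17 windows (89.5%) held an RY copy and 12 (63.2%) an ABRE copy, and 11 (57.9%) held both. Among 15534 windows of all nuclear protein-coding genes of the comparison, 9.46% held RY, 25.7% held ABRE and 2.78% held both. Of the protein-coding genes that rose, 14.2% held RY and 33.3% held ABRE, and of those that fell, 7.97% and 24.1%. For genes higher than both WT columns the shares were 15.2% and 36.4%. A match of these letters describes the sequence and does not show a bound site.

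Genes of dehydration tolerance rose in part. LEA proteins and dehydrins protect cell contents as seed dries, and of 47 such genes 16 rose and 3 fell, with a median log2 ratio of 0.46. Against the second WT, 21 were higher and 1 was lower (median 0.76), and 14 of the 47 were higher than both. LEA was at 104 FPKM in mat nrpd1+/-, 0.885 FPKM in WT and 9.57 FPKM in the second WT (5.80 and 3.31). RAB18 (AT5G66400), a dehydrin gene induced by abscisic acid, was at 24.1 FPKM in mat nrpd1+/-, 0.132 FPKM in WT and 1.71 FPKM in the second WT (4.47 and 3.21). AT3G02480 was at 454 FPKM in mat nrpd1+/-, 14.6 FPKM in WT and 17.0 FPKM in the second WT (4.87 and 4.66). The list summed to 3213 FPKM in mat nrpd1+/-, 1333 FPKM in WT and 1373 FPKM in the second WT.

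The regulators that are known to switch these genes on were mixed. Of 14 regulators of seed maturation, 3 rose and 5 fell (median log2 ratio 0.52), and against the second WT 1 was higher and 4 were lower (median -0.33), so that the sign of the median turned with the WT column. DOG1, which delays germination, was at 9.93 FPKM in mat nrpd1+/-, 1.07 FPKM in WT and 0.832 FPKM in the second WT (2.40 and 2.58). ABI3 was at 58.2 FPKM in mat nrpd1+/- and 20 FPKM in WT (1.49), but differed by less than 2-fold from the second WT at 41.7 FPKM. BZIP53, whose product pairs with other bZIP factors at storage protein promoters, was at 72.9 FPKM in mat nrpd1+/- and 28 FPKM in WT (1.35), with 36.5 FPKM in the second WT.

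In the other direction, LEC1, an early regulator of embryo and endosperm maturation, fell to 95.2 FPKM in mat nrpd1+/-, against 509 FPKM in WT and 226 FPKM in the second WT (-2.41 and -1.24). LEC2 was at 8.87 FPKM in mat nrpd1+/-, 23 FPKM in WT and 23.5 FPKM in the second WT (-1.28 and -1.31). WRI1, which controls oil synthesis, was at 99 FPKM in mat nrpd1+/-, 222 FPKM in WT and 195 FPKM in the second WT (-1.16 and -0.97). FUS3 stayed within 2-fold, at 178 FPKM in mat nrpd1+/-, 94.9 FPKM in WT and 134 FPKM in the second WT. NF-YB6 (LEC1-LIKE) did so too, at 671 FPKM in mat nrpd1+/-, 761 FPKM in WT and 759.6 FPKM in the second WT. Thus LEC1 and LEC2 were low, and DOG1 high, against both WT columns.

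Abscisic acid signalling rose at 10 of 21 genes and fell at 2, with a median log2 ratio of 0.62 (5 higher and 1 lower against the second WT, median 0.40). Of the genes that rose, 5 encode protein phosphatases of clade A, which hold the pathway off until the hormone binds its receptor: AHG1, HAI2, HAB2, PP2CA and HAI1. Of these, only AHG1 and HAI2 were past 2-fold against the second WT, and PP2CA was at 90.14 FPKM in mat nrpd1+/-, 36.5 FPKM in WT and 101.7 FPKM in the second WT (1.28 and -0.17). AHG1, a seed phosphatase that DOG1 binds, was at 16.6 FPKM in mat nrpd1+/-, 1.42 FPKM in WT and 1.34 FPKM in the second WT (2.86 and 2.91). HAI2 was at 6.92 FPKM in mat nrpd1+/-, 0.187 FPKM in WT and 0.354 FPKM in the second WT. LTI65, a stress-induced target of the pathway, was at 9.59 FPKM in mat nrpd1+/-, 0.67 FPKM in WT and 1.92 FPKM in the second WT. The kinase gene SNRK2.3 was lower than both, at 3.40 FPKM in mat nrpd1+/-, 9.03 FPKM in WT and 8.62 FPKM in the second WT. The receptor gene PYR1 was lower than WT only, at 5.10 FPKM in mat nrpd1+/-, 15.7 FPKM in WT and 2.19 FPKM in the second WT (-1.45 and 0.93), so that its direction turned.

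Of 8 genes of abscisic acid synthesis, 2 rose. NCED6, an endosperm-expressed enzyme of the rate-limiting cleavage step, was at 50.3 FPKM in mat nrpd1+/-, 14.0 FPKM in WT and 27.9 FPKM in the second WT (1.78 and 0.83). ABA1, which makes the epoxide precursor, was at 16.7 FPKM in mat nrpd1+/-, 7.81 FPKM in WT and 14.2 FPKM in the second WT (1.01 and 0.22). Neither passed 2-fold against the second WT, and none of 3 measured genes of abscisic acid breakdown did so against either WT.

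Gibberellin acts against abscisic acid in seed, and 4 of 9 genes of its synthesis and breakdown fell while none rose (median log2 ratio -0.79, and -0.60 against the second WT). KAO2, which oxidizes ent-kaurenoic acid, was at 3.36 FPKM in mat nrpd1+/-, 38.4 FPKM in WT and 24.0 FPKM in the second WT (-3.17 and -2.52). The other 3 were GA20OX1, GA20OX2 and GA3OX3, the late steps that yield active hormone. They lay between 0.209 and 1.45 FPKM in mat nrpd1+/- and between 2.45 and 4.55 FPKM in WT, and did not pass 2-fold against the second WT. A further 4 genes of the list lay inside residual regions, with none past 2-fold against either WT (median 0.12). Those 4 summed to 2381 FPKM in mat nrpd1+/- and 2550 FPKM in WT, and the 9 compared to 444 and 681 FPKM.

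The 2 largest rises of all genes were outside the reserve protein lists. AT1G03103 (chr1:747197-748057), a lipid transfer protein gene, was at 889 FPKM in mat nrpd1+/-, 0.75 FPKM in WT and 52.7 FPKM in the second WT (8.99 and 4.05). AT1G14950 (chr1:5157336-5158269), of a lipid transport and polyketide cyclase family, was at 492 FPKM in mat nrpd1+/-, 0.119 FPKM in WT and 0.553 FPKM in the second WT (8.79 and 8.31), so that it was near 0 in both WT columns. AT1G05450, a further lipid transfer protein gene, was at 142 FPKM in mat nrpd1+/-, 0.0618 FPKM in WT and 0.419 FPKM in the second WT (7.07 and 6.65), but its locus overlaps SDE3, and reads of overlapping genes cannot be told apart in counts that ignore strand. The same holds for OLEO1, OLEO2, AT3G01570, BETA-TIP, ALPHA-VPE, MAD2 and DCL3, whose deposited loci overlap a neighbour. Of the 20 largest rises, 19 were also past 2-fold against the second WT and 17 are protein coding.

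Of 40 genes of cuticle, cutin and suberin, 8 rose and 1 fell, 5 of them higher than both WT columns, with a median ratio of -0.02. Over the second WT 6 were higher and 3 lower (median -0.21). KCS16, which extends very long fatty acid chains, was at 63.2 FPKM in mat nrpd1+/-, 0.051 FPKM in WT and 0.724 FPKM in the second WT (5.93 and 5.22). KCS2, of the same enzyme family, was at 21.9 FPKM in mat nrpd1+/-, 0.613 FPKM in WT and 0.803 FPKM in the second WT. MYB107, a regulator of suberin in the seed coat, was at 10.5 FPKM in mat nrpd1+/-, 0.0216 FPKM in WT and 0.715 FPKM in the second WT. The gains in this list were thus at a few genes and not in its median.

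Hydrolases of programmed cell death and reserve processing rose at 5 of 18 genes and fell at 2 (median log2 ratio 0.07). Set against the second WT, 3 were higher and 4 lower (median -0.01), so that the balance turned, and 3 were higher and 2 lower than both. RNS3, a secreted ribonuclease, was at 139 FPKM in mat nrpd1+/-, 1.7 FPKM in WT and 9.49 FPKM in the second WT (5.70 and 3.74). BFN1, a nuclease of dying cells, was at 364 FPKM in mat nrpd1+/-, 18.2 FPKM in WT and 68.0 FPKM in the second WT (4.25 and 2.41). ALPHA-VPE, a vacuolar enzyme that cuts storage proteins, was at 955 FPKM in mat nrpd1+/-, 169.6 FPKM in WT and 617 FPKM in the second WT. The carboxypeptidase gene SCPL45 fell to 4.77 FPKM in mat nrpd1+/-, against 52.9 FPKM in WT and 20.5 FPKM in the second WT (-3.22 and -1.90).

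Of 15 genes of sucrose and hexose supply, 3 rose and 1 fell, and against the second WT 3 were higher and 2 lower. The sucrose carrier SUC2 was at 375 FPKM in mat nrpd1+/-, 42.5 FPKM in WT and 146 FPKM in the second WT (3.11 and 1.36), and sucrose synthase SUS3 at 7.97 FPKM in mat nrpd1+/-, 0.492 FPKM in WT and 2.90 FPKM in the second WT. The sugar exporter SWEET8 moved the other way, at 0.828 FPKM in mat nrpd1+/-, 6.37 FPKM in WT and 4.41 FPKM in the second WT. Of 33 amino acid transporter genes, 7 rose and 2 fell, and their median lay 0.16 above that of all genes as deposited and 0.06 below it when both genotypes were scaled to the same sum. Among the 33, 4 were higher and 2 lower than the second WT (median -0.03). All 7 that rose belong to the UMAMIT family, which exports amino acids. UMAMIT28 was at 71.2 FPKM in mat nrpd1+/-, 6.21 FPKM in WT and 20.8 FPKM in the second WT (3.32 and 1.73), and UMAMIT20 at 149 FPKM in mat nrpd1+/-, 18.5 FPKM in WT and 73.7 FPKM in the second WT. Of 21 aquaporin genes 2 rose and 3 fell (9.52% and 14.3%, near the 9.13% and 12.2% of all genes). Against the second WT 5 were higher and 1 was lower. The largest rise was that of BETA-TIP, an aquaporin gene of protein storage vacuoles, which was at 133 FPKM in mat nrpd1+/-, 1.12 FPKM in WT and 27.1 FPKM in the second WT (5.98 and 2.25).

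Cell wall enzymes of loosening rose at 9 of 31 genes for expansins and xyloglucan enzymes and fell at 2, with 6 higher and 4 lower against the second WT and 6 higher and 1 lower than both. XTR6 was at 30.5 FPKM in mat nrpd1+/-, 0.233 FPKM in WT and 0.661 FPKM in the second WT (4.67 and 4.24), and EXPA5 at 26.8 FPKM in mat nrpd1+/-, 0.278 FPKM in WT and 1.76 FPKM in the second WT (4.44 and 3.33). XTH11 fell to 27.3 FPKM in mat nrpd1+/-, against 264 FPKM in WT and 115 FPKM in the second WT (-3.23 and -2.03). Of 29 genes for cellulose and callose synthesis, 5 rose and 1 fell (median 0.48), but none was higher and 5 were lower against the second WT (median -0.44).

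Heat shock genes were among those higher than both WT columns. Of 21 small heat shock protein genes, 8 rose and 1 fell, 8 were higher and none lower than the second WT, and 7 were higher than both. HSP17.4 was at 432 FPKM in mat nrpd1+/-, 16.6 FPKM in WT and 10.4 FPKM in the second WT (4.62 and 5.24), and AT1G07400 at 362 FPKM in mat nrpd1+/-, 33 FPKM in WT and 12.8 FPKM in the second WT (3.41 and 4.71). Of 7 genes for larger chaperones 4 rose and none fell, while 3 were higher and 2 lower than the second WT. HSP90.1 was at 81.4 FPKM in mat nrpd1+/-, 17.1 FPKM in WT and 22 FPKM in the second WT (2.19 and 1.84). Of 12 heat shock factor genes 3 rose and none fell, and against the second WT 5 were higher and 2 lower. HSFA7A was at 23.4 FPKM in mat nrpd1+/-, 3.12 FPKM in WT and 2.28 FPKM in the second WT (2.57 and 2.90), and HSFA2, which sustains the response, at 15 FPKM in mat nrpd1+/-, 3.17 FPKM in WT and 4.02 FPKM in the second WT. ICL, the isocitrate lyase of the glyoxylate cycle by which oil is turned to sugar, was at 22.6 FPKM in mat nrpd1+/-, 0.203 FPKM in WT and 1.80 FPKM in the second WT (4.30 and 3.08). It was the only one of 15 genes of that cycle and of peroxisomal oxidation to pass 2-fold upward against both.

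Among genes of cell division, the cyclin and DNA replication lists had medians below that of all genes against either WT. Mitosis genes were near all genes against WT, and histones near all genes against the second WT. Of 34 genes for cyclins, cell cycle kinases and their partners, 10 fell and none rose (median log2 ratio -0.72), and against the second WT 16 were lower and none higher (median -0.92). CKS2, a subunit of cyclin-dependent kinases, was at 24.3 FPKM in mat nrpd1+/-, 122 FPKM in WT and 56.2 FPKM in the second WT (-2.28 and -1.18). CDKB1;1, a plant kinase of the step into mitosis, was at 8.01 FPKM in mat nrpd1+/-, 29.1 FPKM in WT and 20.2 FPKM in the second WT (-1.74 and -1.23). CYCB1;4, a mitotic cyclin, was at 8.26 FPKM in mat nrpd1+/-, 28 FPKM in WT and 30.3 FPKM in the second WT (-1.65 and -1.76). WEE1, CYCB1;1, CYCB1;3, CYCB2;1 and DEL1 were also lower than both, and CKS1, near CKS2 in sequence, was lower than WT alone (86 FPKM in mat nrpd1+/-, 256 FPKM in WT and 60.4 FPKM in the second WT).

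Of 30 genes for mitosis and cytokinesis, 5 fell and none rose, and the same 5 were lower than both WT columns. Among them, 3 belong to the spindle checkpoint, which holds mitosis until chromosomes are attached. MAD2 was at 15.8 FPKM in mat nrpd1+/-, 66.0 FPKM in WT and 48.6 FPKM in the second WT (-1.99 and -1.56), BUB3.1 at 11.6 FPKM in mat nrpd1+/-, 34.8 FPKM in WT and 28.7 FPKM in the second WT, and BUBR1 at 2.55 FPKM in mat nrpd1+/-, 6.63 FPKM in WT and 7.19 FPKM in the second WT. The other 2 were MAP65-4 and MAP65-2, which bundle microtubules, with 7.02 and 25 FPKM in mat nrpd1+/-, 23.2 and 51.7 FPKM in WT, and 26.5 and 60.6 FPKM in the second WT. The median of this list was -0.08 against WT and -0.86 against the second WT, beside -0.05 and 0.01 over all genes. Against WT 16.7% of the list fell, beside 12.2% of all genes.

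DNA replication genes fell at 11 of 36 (none rose, median -0.44), with 11 lower against the second WT (median -0.87) and 4 lower than both. PCNA1, the sliding clamp of DNA polymerase, was at 10.2 FPKM in mat nrpd1+/-, 37.5 FPKM in WT and 20.9 FPKM in the second WT (-1.78 and -0.97). TSO2, a subunit of ribonucleotide reductase, was at 11.6 FPKM in mat nrpd1+/-, 44.1 FPKM in WT and 32.6 FPKM in the second WT (-1.84 and -1.42). POLD4 fell to 74.4 FPKM in mat nrpd1+/-, against 389 FPKM in WT, but was at 56.9 FPKM in the second WT (-2.37 and 0.38).

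Core and linker histones fell at 21 of 33 genes and rose at none. Their median log2 ratio was -1.40 against WT and -0.15 against the second WT, where 7 were lower and 2 higher. AT5G65360, a histone H3 gene, was at 19.9 FPKM in mat nrpd1+/-, 114 FPKM in WT and 112 FPKM in the second WT (-2.46 and -2.44), whereas AT3G53730 was at 18.9 FPKM in mat nrpd1+/-, 230.0 FPKM in WT and 17.6 FPKM in the second WT (-3.54 and 0.09). HIS4, a histone H4 gene, was at 27.5 FPKM in mat nrpd1+/-, 199 FPKM in WT and 62.7 FPKM in the second WT. Histone genes share near-identical coding sequence, so levels of single copies are uncertain.

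Many mitotic genes of plants carry the MSA motif, read by MYB3R factors, and its core AACGG was searched in the same windows, on both strands. It was present in 56.7% of 30 windows of the mitosis list, 41.2% of 34 windows of the cyclin list and 51.5% of 33 histone windows, but in 7 of 35 windows of the replication list, against 24.9% of all windows. The window of MAD2, at chr3:9502756-9503055 on the plus strand, is printed as the checkpoint gene with the largest decrease, with the MSA core, as its reverse complement CCGTT, in capitals 13 bases before the gene start.
MAD2: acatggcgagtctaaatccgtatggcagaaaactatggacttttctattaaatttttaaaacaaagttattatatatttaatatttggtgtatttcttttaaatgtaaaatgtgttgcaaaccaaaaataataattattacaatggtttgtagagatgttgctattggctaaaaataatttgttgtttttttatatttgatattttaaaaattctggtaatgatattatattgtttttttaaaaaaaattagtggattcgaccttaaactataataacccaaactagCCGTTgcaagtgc
The windows of CKS2, CDKB1;1 and CYCB1;4 did not hold these letters. Of the protein-coding genes that fell, 23.1% held the motif, and of those lower than both WT columns 27.3%.

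Starch enzymes fell at 7 of 23 genes and rose at none (median -0.34, and -0.60 against the second WT). SEX4, a phosphatase that opens starch granules to breakdown, was at 92.8 FPKM in mat nrpd1+/-, 315 FPKM in WT and 273 FPKM in the second WT (-1.75 and -1.55), and LSF1, a related protein, at 5.92 FPKM in mat nrpd1+/-, 25.5 FPKM in WT and 19.8 FPKM in the second WT (-1.94 and -1.59). APL4 and APL2, regulatory subunits of the first enzyme of starch synthesis, were lower than both, at 18.4 and 28.8 FPKM in mat nrpd1+/-, at 48.5 and 67.1 FPKM in WT, and at 41.2 and 62.3 FPKM in the second WT. Of 15 imprinted genes outside the residual regions, 5 paternally and 10 maternally expressed, 2 and 3 fell and none rose (1 and 2 lower against the second WT), and the homeodomain genes HDG3 and HDG9 were lower than both WT columns. HDG3, expressed from the paternal copy, was at 2.28 FPKM in mat nrpd1+/-, 31.7 FPKM in WT and 10.8 FPKM in the second WT (-3.31 and -1.85), and HDG9 at 0.987 FPKM in mat nrpd1+/-, 8.13 FPKM in WT and 5.54 FPKM in the second WT.

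Other gene classes were mixed. Of 25 WRKY genes, regulators of defence and ageing, 3 rose (12%, near the 9.13% of all genes) and none fell (median 0.40). None was past 2-fold against the second WT. Class III peroxidases, which cross-link or loosen cell walls, rose at 6 of 18 genes and fell at 2, with a median of 0.45 against either WT. Of 12 type I MADS-box genes, a class active in early endosperm, 2 fell (16.7%, beside 12.2% of all genes). None was past 2-fold against the second WT (median -0.53, and 0.11 against the second WT). AGL87 was at 77.3 FPKM in mat nrpd1+/-, 278 FPKM in WT and 107 FPKM in the second WT (-1.83 and -0.46). AGL33 was at 0.115 FPKM in mat nrpd1+/- and 10.3 FPKM in WT, and is listed at 0 in the second WT.

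Of 15 flavonoid genes, which make the pigments of the seed, 1 rose and 3 fell, and against the second WT 2 were higher and none lower. F3H, an early step, was at 186 FPKM in mat nrpd1+/-, 52.6 FPKM in WT and 46.5 FPKM in the second WT (1.80 and 1.97). The later steps DFR and LDOX fell, with 21.7 and 5.82 FPKM in mat nrpd1+/- and 48.5 and 44.5 FPKM in WT, but were at 23.2 and 9.21 FPKM in the second WT. GSTF12 (TT19), which carries anthocyanins to the vacuole, was at 3.55 FPKM in mat nrpd1+/-, 26.1 FPKM in WT and 5.19 FPKM in the second WT (-2.57 and -0.44). The losses of the late steps were therefore within 2-fold against the second WT.

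**Figure D3:**
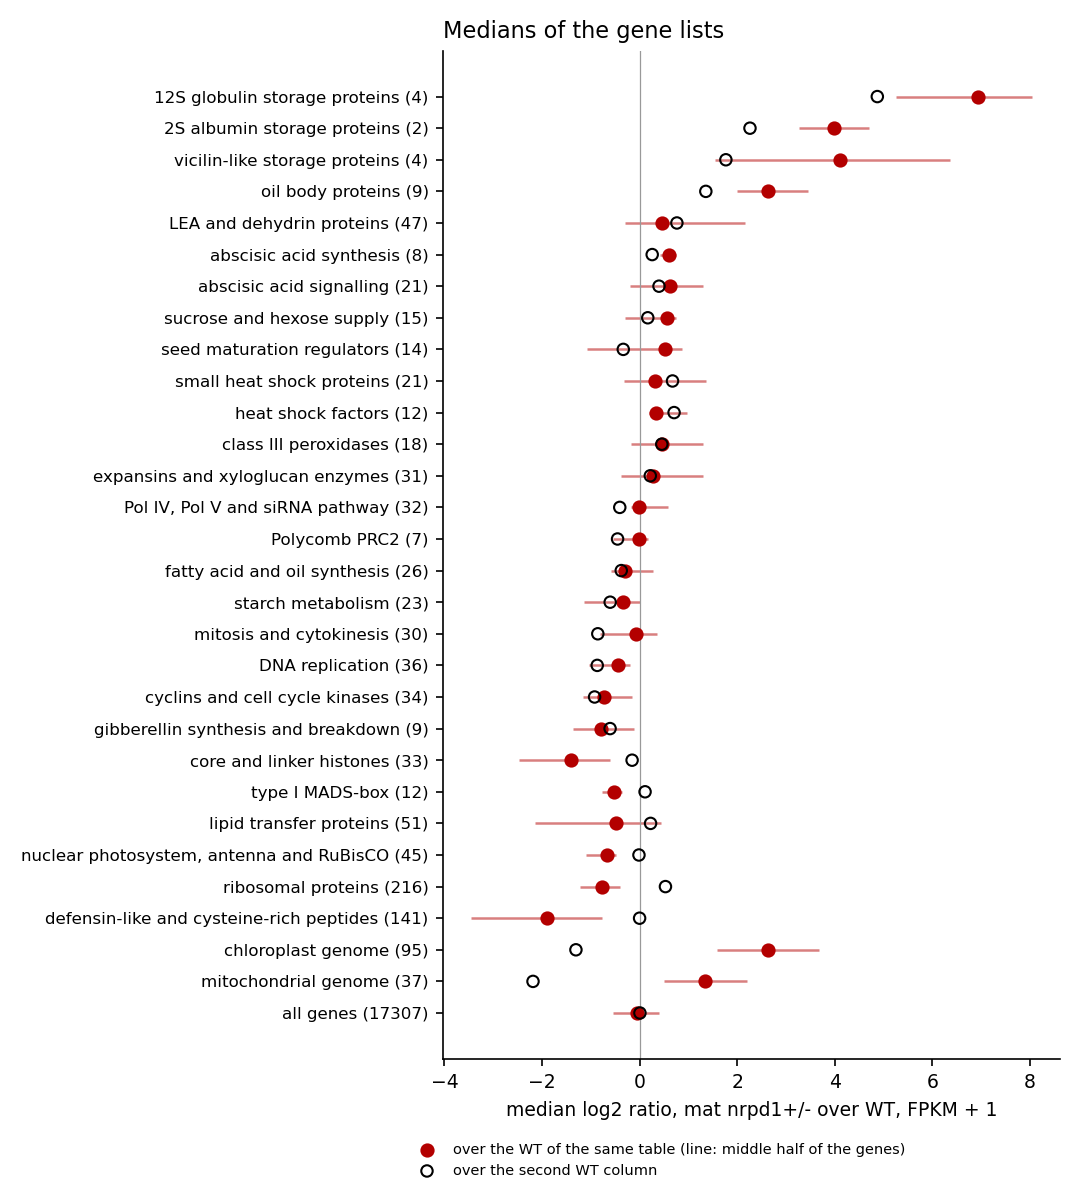
Median log2 ratio of 29 gene lists and of all genes, mat nrpd1+/- over WT (filled, with a line over the middle 50% of genes) and mat nrpd1+/- over the second WT (open); numbers of genes stand in parentheses. Reserve and oil body lists lie right of all genes against either WT. Cell cycle lists lie left of them, mitosis only slightly so against WT and histones only slightly so against the second WT. The direction turned with the choice of WT for ribosomal proteins, chloroplast and mitochondrial genes, lipid transfer proteins and type I MADS-box genes. It also turned for seed maturation regulators, Pol IV pathway and Polycomb genes. Scaling or filtering turned it for Pol IV pathway, Polycomb and oil synthesis genes. The 2S list turned when genes listed at 0 for too many reads were counted.

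The largest losses against WT were of short transcripts, and most were not seen against the second WT. Small secreted cysteine-rich peptides, which include defensins and signals between cells of the seed and pollen tube, fell at 94 of 141 genes and rose at 4, with a median log2 ratio of -1.90. Against the second WT, 10 were lower and 20 higher, with a median of 0.00. The sum over the 141 genes was 14610 FPKM in mat nrpd1+/-, 40068 FPKM in WT and 8127 FPKM in the second WT. It leaves out the cysteine-rich peptide gene LCR69, which had too many reads for an estimate. LCR69 is listed at 0 in mat nrpd1+/- and in WT, and was at 21815 FPKM in the second WT. The order of the 3 sums is therefore uncertain for the family as a whole. LCR28 was at 1.68 FPKM in mat nrpd1+/-, 155 FPKM in WT and 4.0 FPKM in the second WT (-5.87 and -0.90), and AT3G45248, of the ECA1 family, at 2.86 FPKM in mat nrpd1+/-, 319.9 FPKM in WT and 8.37 FPKM in the second WT (-6.38 and -1.28). PDF2.1, the most abundant in the mutant of the defensin genes compared, rose, with 5208 FPKM in mat nrpd1+/-, 2235 FPKM in WT and 896 FPKM in the second WT (1.22 and 2.54).

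Lipid transfer proteins, short as well, fell at 22 of 51 genes and rose at 9 (median -0.48, and 0.22 against the second WT). AT5G38180 was at 698 FPKM in mat nrpd1+/-, 11546 FPKM in WT and 1535 FPKM in the second WT (-4.05 and -1.14). LTP4 was at 94.7 FPKM in mat nrpd1+/-, 1184 FPKM in WT and 441 FPKM in the second WT (-3.63 and -2.21). In all, 6 genes of the list were lower than both WT columns and 7 were higher than both. The neighbours AT5G38160 and AT5G38170, of the same family as AT5G38180, had too many reads for an estimate and are left out. They are listed at 0 in mat nrpd1+/- and in WT, and were at 94899 and 30294 FPKM in the second WT. The level of the family as a whole is therefore uncertain.

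Ribosomal proteins fell at 78 of 216 genes and rose at none (median -0.77), whereas against the second WT 44 were higher and 1 was lower (median 0.53), and none of the 216 was past 2-fold in the same direction against both. Nuclear genes of the photosystems, their antennae and RuBisCO fell at 13 of 45 and rose at none (median -0.67), with 4 lower and 1 higher against the second WT (median -0.01). For these lists and for the peptides, the call thus changed with the WT column.

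Transcript length moved with these results. The median length of the longest annotated transcript was 911 nt for genes that fell and 1574 nt for those that rose, and 28.2% of the genes that fell were under 600 nt, against 12.7% of those that rose and 11.3% of all. Of transcripts of 300 to under 600 nt, 31.6% fell and 7.30% rose, and of those of 3000 nt or more, 1.17% fell and 10.8% rose. Against the second WT the trend ran the other way: 56 of 1110 transcripts of 300 to under 600 nt were lower and 203 higher, while 200 of 1709 transcripts of 3000 nt or more were lower and 11 higher. Genes past 2-fold against both WT columns had median lengths of 1184 nt when higher and 1427 nt when lower. The part of library preparation or read length in this trend was not tested.

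**Figure D4:**
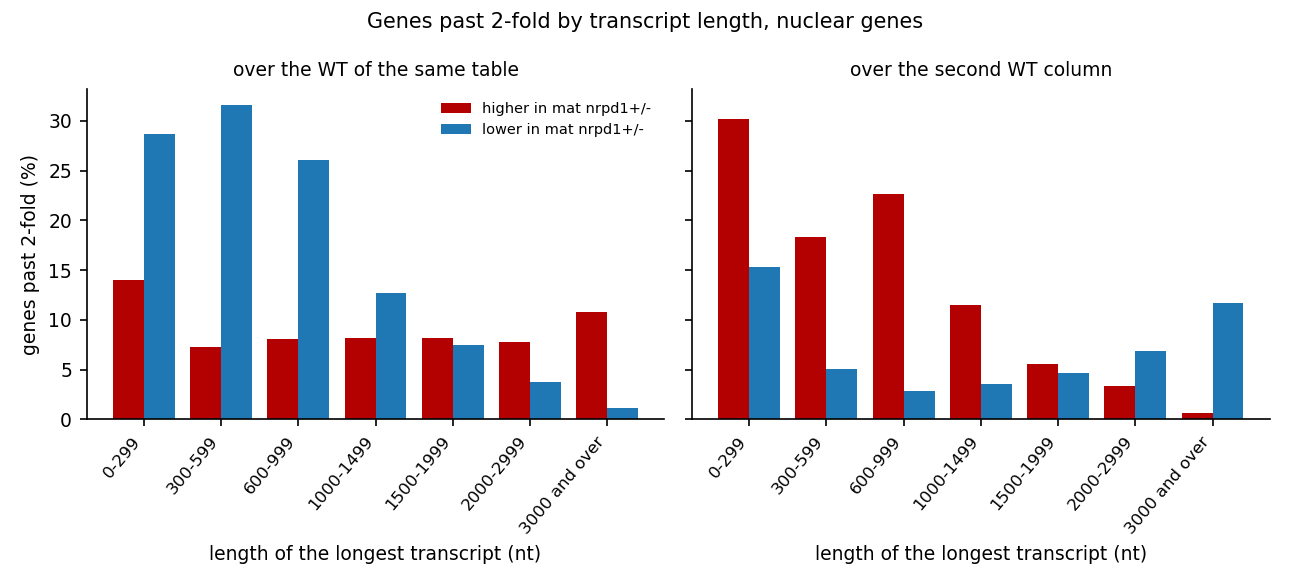
Share of nuclear genes past 2-fold in each class of transcript length, higher (red) and lower (blue) in mat nrpd1+/-, over WT of the same table (left) and over the second WT (right). Lower genes reach 31.6% in the class of 300 to under 600 nt on the left and fall to 1.17% at 3000 nt or more, while on the right higher genes prevail among short transcripts and lower genes among long ones.

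Single genes with the largest decreases showed the same dependence. Of the 20 largest, 16 were under 600 nt and 7 were also past 2-fold against the second WT. AT3G07315, a non-coding RNA, was at 0.381 FPKM in mat nrpd1+/-, 239 FPKM in WT and 49.3 FPKM in the second WT (-7.44 and -5.19), and it overlaps the histone gene HTB9, whose reads cannot be told apart from its own. AT5G35120, a MADS-box gene, was at 1.15 FPKM in mat nrpd1+/-, 99.4 FPKM in WT and 9.69 FPKM in the second WT (-5.54 and -2.31). AT3G16300, of an uncharacterized protein family, was at 1.66 FPKM in mat nrpd1+/-, 119 FPKM in WT and 20.3 FPKM in the second WT (-5.49 and -2.9995). By contrast AT2G19802, of unknown function, was at 8.76 FPKM in mat nrpd1+/-, 990.0 FPKM in WT and 8.02 FPKM in the second WT (-6.67 and 0.11).

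**Figure D5:**
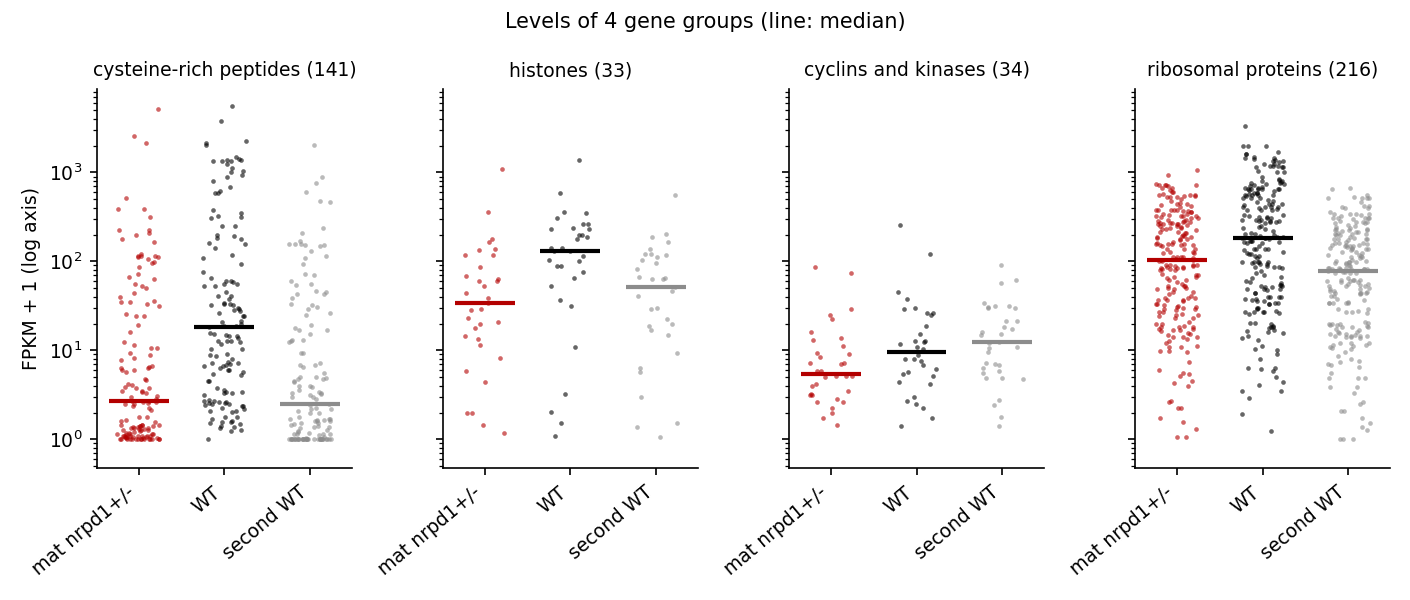
FPKM + 1 on a log axis of each gene of 4 lists in mat nrpd1+/-, WT and the second WT, with a line at the median. For cyclins and kinases the mutant median, 4.48 FPKM, was the lowest of the 3 columns (8.57 FPKM in WT and 11.3 FPKM in the second WT), whereas for cysteine-rich peptides and ribosomal proteins the medians in mat nrpd1+/- lay above those of the second WT.

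Chloroplast and mitochondrial transcripts depended on the WT column most of all. Of 95 chloroplast genes, 84 rose and 4 fell against WT (median 2.63), while 18 were higher and 52 lower against the second WT (median -1.30). Their sum was 15.5% of the FPKM sum over the genes compared in mat nrpd1+/-, 5.08% in WT and 31.9% in the second WT. Genes inside residual regions or without status OK are left out of these sums. Of 37 mitochondrial genes, 25 rose and none fell (median 1.34), and against the second WT 2 were higher and 31 lower (median -2.18). Most organelle transcripts carry no stable poly(A) tail, and the part of mRNA selection in these shares was not tested.

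Genes of other seed tissues were measured because dissected endosperm can carry them. With a tissue enrichment test of its mRNA libraries, the study reported no sign that maternal seed coat was carried over. Of 10 seed coat markers, 2 rose (GATL5 and MYB61) and none fell, and against the second WT none was higher and 1 was lower. Their sum was 166 FPKM in mat nrpd1+/-, 109 FPKM in WT and 216 FPKM in the second WT, and none was listed at 0. TT10, a laccase gene of the seed coat, was at 75.1 FPKM in mat nrpd1+/-, 53.6 FPKM in WT and 111 FPKM in the second WT. Of 7 embryo patterning markers 2 fell (CUC1 and NPY5), and 3 were lower against the second WT, with a sum of 104 FPKM in mat nrpd1+/-, 159 FPKM in WT and 152 FPKM in the second WT. The embryo also makes cruciferins, albumins and oleosins, and its part in the gains was not tested.

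The tissue label was checked against endosperm markers. The 4 of these outside the residual regions, AGL62, MEA, FWA and MPC, which act early, were at most 0.283 FPKM in mat nrpd1+/- and at most 1.91 FPKM in WT. The later endosperm genes RGE1 (ZHOUPI), a regulator of endosperm breakdown, and SUC5, a sucrose carrier, lie inside residual regions and were at 68.2 and 228 FPKM in mat nrpd1+/- and at 56.8 and 203 FPKM in WT. RGE1 and SUC5 were thus expressed in both genotypes. Of all 6 endosperm markers with status OK inside the regions, 1 was higher and 1 lower than WT, and 1 was higher and 2 lower than the second WT.

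Of 32 genes of Pol IV, Pol V and the small RNA pathway, 2 rose and none fell, with a median log2 ratio of 0.00. These were DCL3, which cuts Pol IV transcripts into small RNAs (3.48 FPKM in mat nrpd1+/-, 0.694 FPKM in WT and 3.36 FPKM in the second WT), and AGO2 (19.3 FPKM in mat nrpd1+/-, 7.65 FPKM in WT and 12.7 FPKM in the second WT). Against the second WT neither passed 2-fold, and 5 genes of the list were lower (median -0.41). None of 7 Polycomb PRC2 genes, which silence endosperm targets, passed 2-fold against either WT (medians -0.02 and -0.45). Of 16 genes of DNA methylation and demethylation, 2 rose and 1 fell (median 0.33). These were 12.5% and 6.25%, beside 9.13% and 12.2% of all genes. Against the second WT none was higher and 2 were lower (median -0.20). The one that fell, CHR1 (DDM1), a remodeller that gives methyltransferases access to heterochromatin, was at 2.93 FPKM in mat nrpd1+/-, 6.92 FPKM in WT and 7.29 FPKM in the second WT (-1.01 and -1.08).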

How the data were processed

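The series holds endosperm mRNA of mat nrpd1+/- (3 libraries) and WT (2 libraries), taken 7 days after pollination. Which WT libraries were pooled in the WT column is not stated. The authors trimmed reads (Trim Galore, FastQC), aligned them with TopHat to TAIR10 and deposited 1 pooled FPKM value per gene and genotype from Cuffdiff (version 2.2.1 per GEO's processing notes). No counts, per-library values or depths were used, so errors and p-values were not computed. The authors' own comparison columns (fold change, test statistic, p-value, q-value, call) were not used, nor were 2 value columns of other genotypes.

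Genes with status OK outside 12 residual Col-0 regions were kept. Ratios were log2((mat nrpd1+/- FPKM + 1)/(WT FPKM + 1)), with a 2-fold line in place of a test. The second WT was scaled by its median ratio over genes with at least 1 FPKM in both columns. Alternatives were other pseudocounts, scalings, filters and a 4-fold line. Genes were assigned to 57 lists, and 55 list symbols matched no single gene. After values were seen, 64 list entries were removed because the name belongs to another protein. The members and lists were chosen with earlier results of these data known. Named were the 20 largest changes in each direction, up to 4 largest changes past 2-fold and up to 2 highest levels per list, every gene of a list of 8 or fewer, NRPD1 and genes the study names for this genotype. The text gives a selection of these. WEE1, APL2, LEC2, CYCB1;1, CYCB1;3, CYCB2;1, DEL1, HIS4, FUS3, WRI1, PYR1, SNRK2.3, MAP65-2, OLEO3, LTP4, AT5G65360 and the genes inside residual regions were added after their values were seen. RefSeq names were found for 37044 of 37329 genes, and 17173 of 17175 RefSeq spans lay within the deposited loci. Strand was not used in the counts as far as the sources state, so overlapping genes may share reads. The scripts were tested on simulated data (Python 3.11.15, numpy 2.4.6, pandas 2.3.3, matplotlib 3.10.9).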

Additional observations from a re-analysis of the deposited data

Results flagged for a closer look

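Genes that the comparison left out passed 2-fold at shares near those of the genes compared. Inside the 12 regions of residual Col-0 sequence, 4672 genes had status OK. Of these, 468 were higher in mat nrpd1+/- than in WT (10%, beside 9.13% of the genes compared) and 572 were lower (12.2%, beside 12.2%). Their median log2 ratio was -0.04, beside -0.05. Against the second WT 497 were higher and 302 lower, and 226 were higher and 111 lower than both.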

How the results depend on the processing

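No paired analysis was possible because the table holds 1 pooled value per genotype, and leaving out a library was not possible for the same reason. The number of genes higher in mat nrpd1+/-, 1580 as reported, was 2664 with a pseudocount of 0.1 FPKM, 788 with 5 FPKM, 2888 with none, 3377 with both genotypes scaled to the same sum and 458 at the 4-fold line. The number lower, 2107 as reported, was 1270 with a pseudocount of 5 FPKM, 3239 with none, 1172 at the same sum, 1097 against the second WT and 531 at the 4-fold line. The other 6 alternatives for each count stayed within 1.5 times. Of the list medians under the alternatives, 509 stayed within 1.5-fold of the reported median, 55 moved further and 3 whose median was past 2-fold changed sign. Those 3 were the 2S albumins with every status counted (-8.19), which then hold genes listed at 0 for want of an estimate, and the chloroplast (-1.30) and mitochondrial genes (-2.18) against the second WT. Of the genes named that were past 2-fold against WT, 8 changed sign against the second WT. They were MYB61 (-0.30), PP2CA (-0.17), POLD4 (0.38), AT2G19802 (0.11), AGL33 (0.16), CKS1 (0.50), AT3G53730 (0.093) and PYR1 (0.93). Sign changes of named genes within 2-fold, such as TT10, were not counted. The cause was not tested. Genes of low FPKM rest on an unknown number of fragments.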

Other observations

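Several reserve and maturation genes lay inside the residual regions and were not among the genes compared. ATS3, an embryo-specific gene, was at 1226 FPKM in mat nrpd1+/-, 3.40 FPKM in WT and 74.5 FPKM in the second WT. TIP3;1, the aquaporin of protein storage vacuoles that pairs with BETA-TIP, was at 857 FPKM in mat nrpd1+/-, 9.02 FPKM in WT and 184 FPKM in the second WT. LEA7 was at 434 FPKM in mat nrpd1+/-, 15.3 FPKM in WT and 45.5 FPKM in the second WT, and the oleosin family gene AT1G48990 at 218 FPKM in mat nrpd1+/-, 15.9 FPKM in WT and 30.2 FPKM in the second WT. The deposited loci of LEA7 and TIP3;1 overlap a neighbour. Of all 20 LEA and dehydrin genes inside the regions, 5 were higher and 1 lower than WT (median log2 ratio 0.00). Against the second WT 6 of these 20 were higher and 0 lower (median 0.29). YUC10, an auxin synthesis gene of the endosperm, was at 66.2 FPKM in mat nrpd1+/-, 6.17 FPKM in WT and 14.1 FPKM in the second WT. ABI5, the bZIP factor of abscisic acid response, was at 2.16 FPKM in mat nrpd1+/-, 2.16 FPKM in WT and 2.3 FPKM in the second WT. Of 10 histone genes inside the regions 8 were lower than WT and none higher (median log2 ratio -1.72), but only 2 were lower than the second WT and none higher (median -0.39).

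The 2S albumin genes SESA2, SESA3 and SESA4 had no estimate in mat nrpd1+/- because of read number and are listed at 0 there, while they were at 291, 514 and 325 FPKM in WT. Among non-coding genes of the comparison, 74 of 953 long non-coding RNAs were higher in mat nrpd1+/- than in WT and 154 lower, against 143 higher and 62 lower over the second WT. Of 174 small nucleolar RNAs, 37 were higher and 47 lower than WT, and 91 higher and 53 lower than the second WT.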
